A study of Mus musculus with 5 samples.

Results

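The Hox genes described here are the 39 mouse protein-coding genes with a symbol of the form Hoxa, Hoxb, Hoxc or Hoxd and a number, out of 21779 protein-coding genes considered. They lie in 4 clusters on 4 chromosomes, and each cluster was examined from 10 kb before its first gene to 10 kb after its last. Binding of ZFP541, a germ-cell protein with zinc fingers, had been mapped by ChIP-seq, where DNA pulled down with an antibody from cross-linked chromatin is sequenced. All cells were pachytene and diplotene spermatocytes from testes of adult C57BL/6 mice, enriched by STA-PUT, a sedimentation method. The groups were Zfp541-/- cells with the ZFP541 antibody (1 library), wild-type cells with the same antibody (2 libraries, replicates 1 and 2) and wild-type input DNA (2 libraries, not analysed here). The labels do not describe the Zfp541-/- allele, nor do they say if each replicate was a different animal.

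Hox genes encode homeodomain transcription factors that set the position of structures along the body axis of the embryo. Their order along a cluster follows the order in which they act along that axis, and equivalent genes of different clusters form paralogue groups numbered 1 to 13. In cells that do not use them, they are kept silent by Polycomb proteins, and in the male germ line their starts are known to carry both Polycomb and Trithorax histone marks. ZFP541 is known to associate with KCTD19 and with histone deacetylases HDAC1 and HDAC2.

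Of the 39 Hox genes, 10 had a peak of any library inside them or within 1 kb, and the strongest signals were at Hoxd8 and Hoxa4. A peak is a stretch where the authors' peak caller found more ChIP signal than its background, and its fold enrichment is the authors' own value. The Zfp541-/- library had 1 peak in the 4 clusters, wild-type replicate 1 had 10 and wild-type replicate 2 had 15. Peaks of both wild-type replicates that shared at least 1 bp were joined into regions, and regions with a Zfp541-/- peak would have been left out; there were 5 regions, at Hoxd8, Hoxa4, Hoxc12, Hoxb5 and Hoxa7. A gene was called occupied if a region lay within 1 kb of either of its ends, which held for these 5 of 39 Hox genes (12.8%), beside 21% of all protein-coding genes. Genes of 1 cluster are neighbours and are not independent, so the difference between these shares is a description and was not tested. With 1 Zfp541-/- library, no test between the genotypes was possible, and since read depth is unknown from peak lists, a missing peak does not show that a site was unbound.

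**Figure D1:**
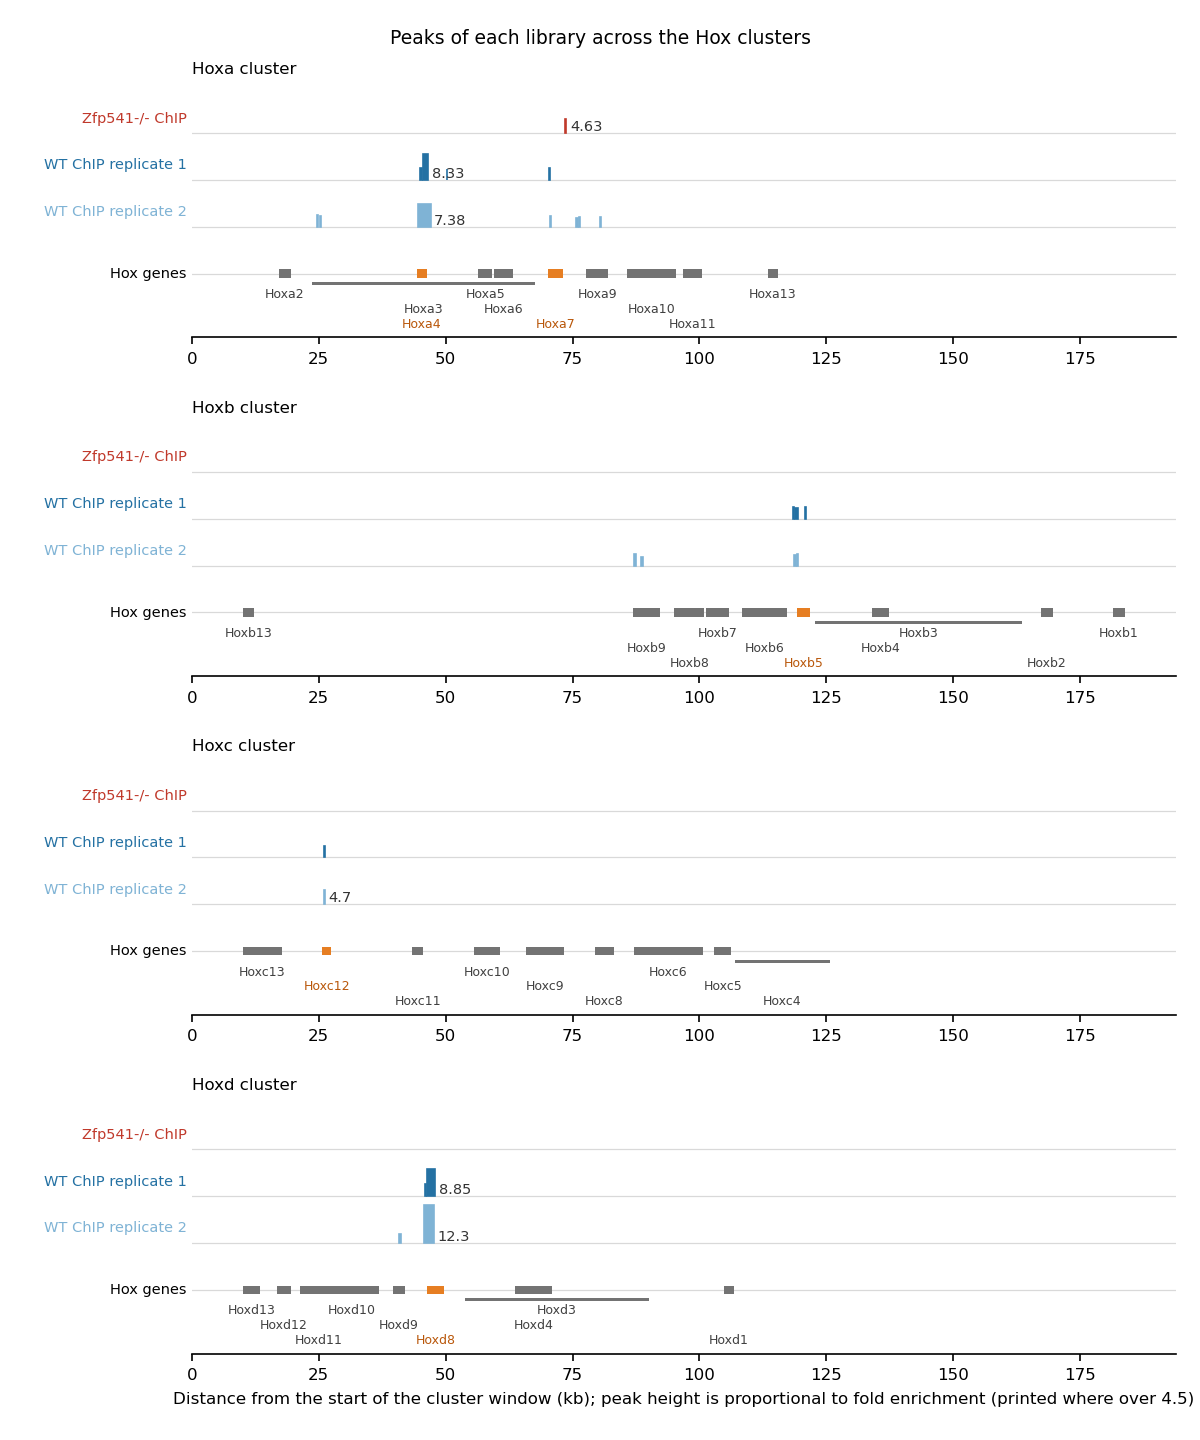
Hox clusters in kb from the start of each window, with peaks of the Zfp541-/- library (red), wild-type replicate 1 (dark blue) and wild-type replicate 2 (light blue) drawn at their widths with a thin outline, and heights proportional to fold enrichment. Genes called occupied are orange and others grey (thin bars are genes with a long annotated span; 1 gene and the peak inside it are not drawn). The tall peaks stand at Hoxa4 and Hoxd8, with folds of 8.33 and 7.38 at Hoxa4 and 8.85 and 12.3 at Hoxd8 in wild-type replicates 1 and 2, and the single Zfp541-/- peak stands beside Hoxa7.

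Hoxd8, a gene of paralogue group 8 with a role in the patterning of the trunk, had the strongest signal of the 39. The Zfp541-/- library had no peak there, and the wild-type libraries had folds of 8.85 (−log10 q 15.95) and 12.3 (−log10 q 31.0) in replicates 1 and 2. These lay at the 88.4th and 95.7th percentiles of fold in their own lists. The region spanned chr2:74703944-74706206 (mm10), a width of 2263 bp that was larger than or equal to that of 90.05% of all regions. It began 671 bp upstream of the Hoxd8 start and reached into the gene. The summits of the replicates were 662 bp and 580 bp downstream of the start, and 82 bp apart. The region also reached within 1 kb of an end of Gm38462, an lncRNA gene that overlaps Hoxd8.

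The promoter sequence of Hoxd8 (250 bases before to 50 after the start, RefSeq, GRCm38.p6, chr2:74704365-74704664, plus strand) is shown because it was the one Hox promoter of the reference table that a region overlapped, and the whole of it lay inside the region. Replicate 2 had 1 peak over all 300 bases, while replicate 1 had a weaker peak upstream (fold 3.93, chr2:74704064-74704324) and the main peak from 74704528 on, so that 137 of the 300 bases lay in a replicate 1 peak. The promoter of its neighbour Hoxd9 (chr2:74697513-74697812, plus strand), which no peak of any library overlapped, is shown for comparison. CpG dinucleotides are in capitals.
Hoxd8: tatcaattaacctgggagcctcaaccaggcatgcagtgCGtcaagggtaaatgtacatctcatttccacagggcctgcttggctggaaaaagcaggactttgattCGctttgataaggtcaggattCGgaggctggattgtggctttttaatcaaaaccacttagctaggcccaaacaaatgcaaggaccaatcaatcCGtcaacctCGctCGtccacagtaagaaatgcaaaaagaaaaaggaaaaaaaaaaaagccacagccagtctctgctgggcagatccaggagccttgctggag
Hoxd9: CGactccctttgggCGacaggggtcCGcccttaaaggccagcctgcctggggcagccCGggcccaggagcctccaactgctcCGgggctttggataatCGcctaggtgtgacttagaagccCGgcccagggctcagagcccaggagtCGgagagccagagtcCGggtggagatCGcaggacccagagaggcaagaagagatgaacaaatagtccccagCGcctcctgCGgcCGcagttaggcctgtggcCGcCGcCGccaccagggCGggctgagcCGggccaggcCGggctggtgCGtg
The Hoxd8 sequence held 6 CpG dinucleotides and 46.7% G+C, and the Hoxd9 sequence held 20 and 68.3%. Both Hoxd8 summits lay downstream of the printed sequence, and the CpG content under them was not examined.

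Hoxa4, a gene of paralogue group 4 that patterns the neck and upper trunk and whose transcripts are known from mouse spermatogenic cells, had the next strongest signal. No Zfp541-/- peak lay there, and the wild-type folds were 8.33 (−log10 q 15.5) and 7.38 (−log10 q 11.7) in replicates 1 and 2, at the 86.6th and 82.5th percentiles of their lists. The region spanned chr6:52189845-52192380, 2536 bp, and covered most of the gene (52189682 to 52191703). Its summits were 248 bp and 289 bp inside the higher-coordinate end of Hoxa4 and 41 bp apart. All 9 Hoxa genes with a start in the reference table are on the minus strand, so this end is the start if Hoxa4 is transcribed in the same direction. Replicate 1 had a further, weaker peak of fold 4.01 in the same region, near the other end of the gene. The region also lay inside the annotated span of Hoxa3, which runs from 52169059 to 52213067 and contains Hoxa4, and within 1 kb of an end of the lncRNA gene LOC115490409.

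The other occupied genes had weaker regions, at the 13.4th to 22.4th percentiles of all regions by mean percentile of fold. Hoxc12, a posterior gene of paralogue group 12, had no Zfp541-/- peak and wild-type folds of 3.57 (−log10 q 1.67) and 4.70 (−log10 q 4.41). Its region was 303 bp wide (chr15:102937070-102937372) and lay inside the gene, with summits 411 bp and 375 bp from the lower-coordinate end. Neither wild-type library had a peak elsewhere in the Hoxc window.

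At Hoxb5, which positions the shoulder girdle, the Zfp541-/- library had no peak and the wild-type folds in the region were 3.57 and 3.69 (−log10 q 1.67 and 2.15). The region (chr11:96303021-96303825, 805 bp) crossed the lower-coordinate end of the gene, but its strongest summits in the replicates were 571 bp apart. Replicate 1 had 2 further peaks near the gene that replicate 2 did not share, with folds of 3.85 and 3.93.

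Hoxa7, a gene of thoracic patterning, was the one Hox gene with a Zfp541-/- peak. That peak (chr6:52218891-52219156, 266 bp) had a fold of 4.63 and a −log10 q of 3.14, at the 80.9th percentile of the Zfp541-/- list, and its summit lay 496 bp upstream of the Hoxa7 start. Neither wild-type library had a peak there. The wild-type region of Hoxa7 (chr6:52215718-52216176, 459 bp) lay 2715 bp away, at the other end of the gene, with folds of 3.93 and 3.36 (−log10 q 2.38 and 1.48) and summits 2705 bp and 2584 bp downstream of the start. The signals of the genotypes therefore stood at opposite ends of this gene. Of all protein-coding genes, 0.0459% (10) had a Zfp541-/- peak within 1 kb of an end.

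The Hoxa7 promoter (RefSeq, GRCm38.p6, chr6:52218524-52218823, minus strand) is shown because the Zfp541-/- peak began 68 bp past its upstream end, and no wild-type peak overlapped it. CpG dinucleotides, 9 in all, are in capitals.
Hoxa7: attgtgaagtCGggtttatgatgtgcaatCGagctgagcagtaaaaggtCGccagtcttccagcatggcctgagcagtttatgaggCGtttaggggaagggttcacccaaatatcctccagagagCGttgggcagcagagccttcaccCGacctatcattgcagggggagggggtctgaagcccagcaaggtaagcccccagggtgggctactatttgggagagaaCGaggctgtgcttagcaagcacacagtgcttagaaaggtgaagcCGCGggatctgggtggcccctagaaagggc

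Within 1 kb of gene ends, peaks of a single wild-type replicate added Hox genes in replicate 2 only. In replicate 1, 5 of 39 Hox genes had a peak within 1 kb of an end (12.8%, beside 23.7% of all protein-coding genes), and these were the 5 occupied genes. In replicate 2 there were 8 (20.5%, beside 27.8%), with Hoxa3, Hoxb9 and Hoxd9 in addition. A −log10 q below 1.301 is a q-value above 0.05. Hoxb9, which patterns the thoracic ribs, had folds of 3.69 and 2.65 (−log10 q 2.15 and 0.516) in replicate 2 at its lower-coordinate end and inside the gene. Hoxd9, a gene of limb and trunk patterning, had a fold of 3.02 (−log10 q 0.858) near its far end. Hoxa3, needed for organs of the neck, had 3.69 and 3.32 (−log10 q 2.15 and 1.60) near its lower-coordinate end. Inside Hoxa9, a regulator of blood cells as well as of the trunk, replicate 2 had a peak of fold 3.02 (−log10 q 1.01). Outside these genes, replicate 2 had 2 peaks between Hoxa7 and Hoxa9 (folds 2.69 and 3.02, −log10 q 0.314 and 0.858). Inside the Hoxa3 span, replicate 1 had 1 peak that replicate 2 did not share (fold 3.57, −log10 q 1.67). No Zfp541-/- peak lay at any of these sites.

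The remaining 29 Hox genes had no peak inside them or within 1 kb in any library. In the Hoxd cluster these were Hoxd1, Hoxd3, Hoxd4, Hoxd10, Hoxd11, Hoxd12 and Hoxd13, and in the Hoxa cluster Hoxa2, Hoxa5, Hoxa6, Hoxa10, Hoxa11 and Hoxa13. In the Hoxb cluster they were Hoxb1, Hoxb2, Hoxb3, Hoxb4, Hoxb6, Hoxb7, Hoxb8 and Hoxb13, and in the Hoxc cluster every gene except Hoxc12. By cluster, occupied genes were 2 of 11 (Hoxa), 1 of 10 (Hoxb), 1 of 9 (Hoxc) and 1 of 9 (Hoxd). They belong to paralogue groups 4, 5, 7, 8 and 12, so no group was occupied in more than 1 cluster. With only 5 occupied genes over 13 groups, this does not show that paralogues differ.

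The median fold of wild-type Hox peaks was below that of their library. The median fold was 3.93 over the 10 Hox peaks of replicate 1, beside 4.29 over all its 8236 peaks, and 3.36 over the 15 of replicate 2, beside 4.03 over all 10371. The single Zfp541-/- Hox peak had 4.63, beside a median of 3.33 over 256. A q-value above 0.05 was found at 0 of 1 Zfp541-/- Hox peaks, beside 11.3% of that list, at 0 of 10 in replicate 1, beside 19.2%, and at 5 of 15 in replicate 2, beside 22.6%. Low folds took few distinct values. In replicate 1, 3 Hox peaks had a fold of exactly 3.57, a value shared by 618 peaks of the list (7.50%), and 3 had 3.93, shared by 535 (6.50%). Weak peaks of this kind are hardly ranked against each other by fold.

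**Figure D2:**
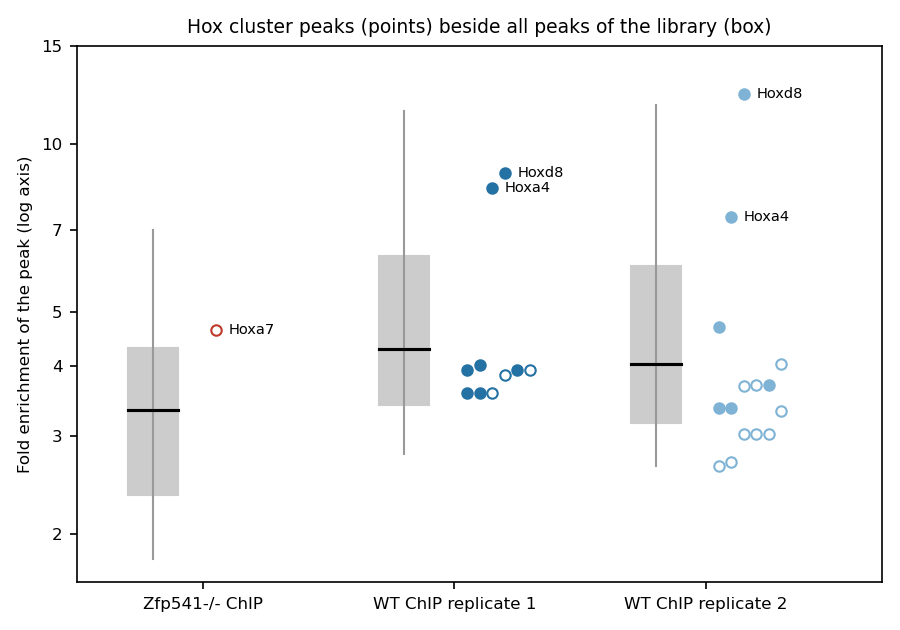
Fold enrichment (log axis) of Hox cluster peaks (points) beside all peaks of the same library (grey box from the lower to the upper quartile, black line at the median, whisker from the 5th to the 95th percentile). Filled points overlap a peak of the other wild-type replicate, and open points do not (for the Zfp541-/- library, open means no wild-type overlap). Hoxd8 and Hoxa4 stand above the box in both wild-type libraries, and the other wild-type points lie between 2.65 and 4.70.

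The wild-type replicates shared part of their Hox peaks. Of these peaks, 7 of 10 in replicate 1 overlapped a replicate 2 peak (70%, 95% exact binomial interval 34.8 to 93.3), beside 73.7% of all its peaks. In replicate 2, 6 of 15 overlapped a replicate 1 peak (40%, 16.3 to 67.7), beside 54.7%. The intervals cover counting error only and are wide, so a difference from the whole lists is not excluded.

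The clusters are dense in genes, and this bears on how peaks are counted. The 4 windows hold 40 protein-coding genes, the 39 Hox genes and Evx2, in 0.572 Mb, which is 69.9 per Mb beside 8.18 per Mb over the genome. Peaks per Mb in the windows were 1.75 in the Zfp541-/- library, 17.5 in replicate 1 and 26.2 in replicate 2, beside 0.0962, 3.09 and 3.90 over the genome in the same order. Per protein-coding gene, the windows held 0.025 Zfp541-/- peaks, 0.25 replicate 1 peaks and 0.375 replicate 2 peaks, beside 0.0118, 0.378 and 0.476 over the genome. In the wild type, Hox clusters thus had more peaks than the genome per length and fewer per gene. The 2 per-gene figures are not fully alike. The genome figure counts every peak, also those far from any gene, and the window figure only peaks within 10 kb of a cluster.

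Few of the listed Hox starts had a region. The reference table of promoters held a start for 22 of the 39 Hox genes. A region lay within 1 kb of a listed start at 1 of these 22 genes (4.55%), Hoxd8, beside 21.7% of 17492 protein-coding genes with a listed start. Of the 24 Hox promoter sequences, 1 (4.17%) overlapped a region, beside 19.4% of all 21263. Hoxa4, Hoxb5 and Hoxc12, all called occupied, had no entry in the table, so their starts were not counted. The listed Hoxb and Hoxc genes are on the plus strand. If Hoxb5 and Hoxc12 are transcribed in that direction, their regions lie within 1 kb of their starts, as does that of Hoxa4 on the minus strand.

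None of the CpG-rich Hox promoters in the reference table overlapped a region. The occupied genes Hoxa4, Hoxb5 and Hoxc12 had no promoter sequence there, so their CpG count and overlap were not examined. Hox promoters held 4 to 45 CpG dinucleotides with a median of 14.5, beside a median of 13 over all protein-coding promoters and 30 over promoters that overlapped a region. Of promoters with 0 to 4 CpG, 0 of 3 Hox promoters and 0.315% of all overlapped a region. Of those with 14 to 24 CpG, 0 of 7 Hox promoters and 20.7% of all did. Of promoters with 25 to 67 CpG, 0 of 6 Hox promoters (Hoxa5, Hoxa6, Hoxa13, Hoxd1, Hoxd11 and Hoxd13) and 53.1% of all did. In these CpG-rich classes together this was 0 of 13 Hox promoters, beside 37.1% of all and 9 of 44 promoters of other homeobox genes. Hoxd8, at 6 CpG, was in a class (5 to 13) in which 5.13% of all promoters overlapped a region. Promoters of 1 cluster are neighbours and are not independent of each other, so these shares are a description of 24 sequences.

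**Figure D3:**
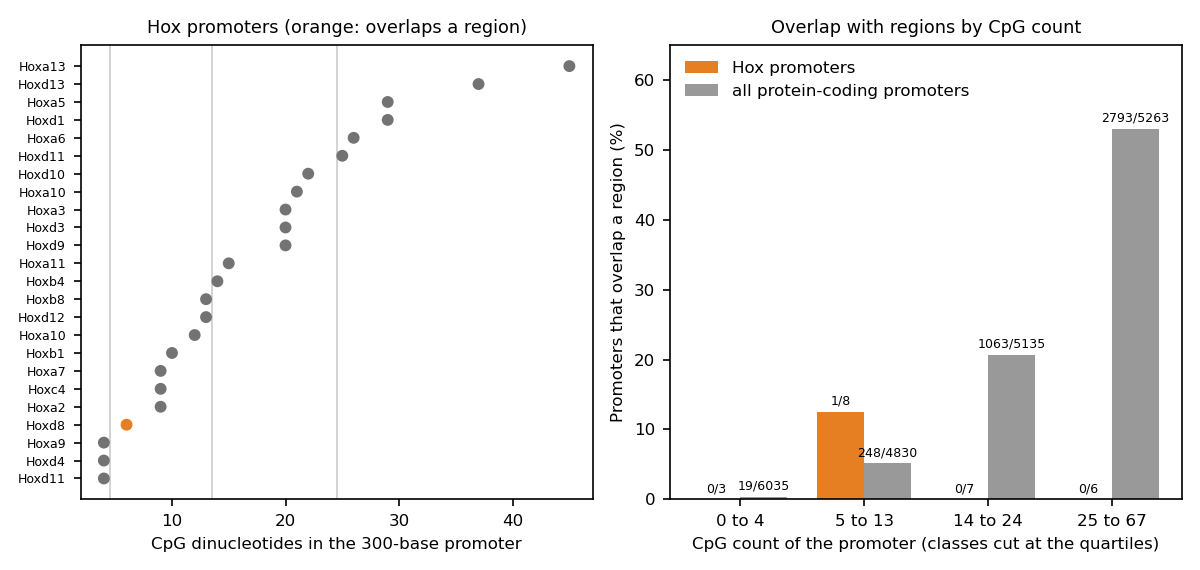
Left, number of CpG dinucleotides in each of the 24 promoters of 22 Hox genes (grey lines mark the bounds of the CpG classes); the orange point, Hoxd8, overlaps a region. Right, percentage of promoters that overlap a region in each class of CpG count, for Hox promoters (orange) and all protein-coding promoters (grey), with counts printed; among Hox promoters the values are 0 of 3, 1 of 8, 0 of 7 and 0 of 6, and among all promoters they rise with CpG count to 53.1%.

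Common promoter motifs were searched on both strands in the 300-base promoter sequences, counting presence only. The GC box GGGCGG was in 10 of 24 Hox promoters (41.7%), beside 46.2% of all promoters and 78.5% of those that overlapped a region. CCAAT was in 15 (62.5%), beside 38.2% and 34.2%, and TATAAA was in 4 (16.7%), beside 12.6% and 4.56%. The Hoxd8 promoter held CCAAT and neither of the other motifs. The 3 motifs cannot be parts of each other, and a match is a description, not a binding site.

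All 5 regions in the windows lay at Hox genes, so a non-coding gene there could have a region only beside a Hox gene. Of 27 lncRNA genes in the windows, 3 had a region within 1 kb of an end (Gm38462 at Hoxd8, LOC115490409 at Hoxa4 and Mira at Hoxa7), beside 6.5% of all lncRNA genes. Hoxaas2 had a peak of replicate 2 only. None of the 6 microRNA genes of the clusters (Mir10a, Mir10b, Mir196a-1, Mir196a-2, Mir196b and Mir615) had a peak of any library within 1 kb, beside 4.8% of all microRNA genes with a region there.

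Genes that work with Hox proteins were compared by the same rule. Of 9 genes for TALE homeodomain cofactors, which bind DNA together with Hox proteins, 4 were occupied (44.4%, beside 21% of all protein-coding genes). Pbx4, a PBX member known from the testis, had wild-type folds of 10.00 and 6.04 in replicates 1 and 2, Pbx3 had 7.14 and 6.34, and Pknox1 had 6.48 and 6.08. Pknox2 had weaker folds of 2.86 and 3.02 (−log10 q 0.437 and 1.01), and the remaining 5 were not occupied. With the q-value held to at most 0.05, Pknox2 was lost and 3 of 9 were occupied (33.3%, beside 18.8%). A share above that of all genes did not hold under every setting. With peaks of −log10 q 10 or more, 0 of 9 were occupied, beside 6.78% of all genes. At listed starts 1 of 5 was occupied (20%), beside 21.7%. No gene of this list had a Zfp541-/- peak near an end. The Pbx4 promoter (RefSeq, GRCm38.p6, chr8:69832374-69832673, plus strand), which overlapped the region of the cofactor list with the highest rank, is shown with its 19 CpG dinucleotides in capitals.
Pbx4: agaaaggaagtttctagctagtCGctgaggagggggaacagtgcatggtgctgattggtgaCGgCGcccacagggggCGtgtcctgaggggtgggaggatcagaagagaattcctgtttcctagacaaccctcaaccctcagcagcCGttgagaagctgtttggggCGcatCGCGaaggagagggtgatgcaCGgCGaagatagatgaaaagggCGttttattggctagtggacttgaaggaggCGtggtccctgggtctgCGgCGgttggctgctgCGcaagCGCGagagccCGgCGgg

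ParaHox and Evx genes are the nearest relatives of the Hox genes. None of the 8 (Gsx1, Gsx2, Pdx1, Cdx1, Cdx2, Cdx4, Evx1 and Evx2) was occupied, beside 21% of all protein-coding genes. From wild-type replicate 2 alone, Gsx1 was occupied (1 of 8, 12.5%, beside 27.8% of all genes). Of 72 other homeobox genes, 19 were occupied (26.4%, beside the same 21%). The strongest were Lhx8, a LIM homeobox gene needed for oocyte development, with wild-type folds of 16.7 and 14.8, then Otx1, a gene of forebrain development, with 10.5 and 10.7, and Irx5, with 9.25 and 11.7. The share was below that of all genes under reciprocal overlap (11.1%, beside 15.3%) and close to it at listed starts (21.3%, beside 21.7%) and with peaks of −log10 q 10 or more (6.94%, beside 6.78%). It was above that of all genes with peaks of −log10 q 5 or more (15.3%, beside 11.8%) and with q-values of at most 0.05 (22.2%, beside 18.8%). The same held from replicate 1 alone (29.2%, beside 23.7%) and replicate 2 alone (33.3%, beside 27.8%). None of the 72 had a Zfp541-/- peak near an end. Among occupied genes, the median folds of replicates 1 and 2 were 3.93 and 4.70 for Hox genes, 6.81 and 6.06 for cofactors, 6.07 and 6.38 for other homeobox genes and 5.71 and 6.38 for all protein-coding genes. The Hox medians were below those of cofactors, other homeobox genes and all protein-coding genes in both replicates, and the folds of Hoxd8 and Hoxa4 were above them.

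**Figure D4:**
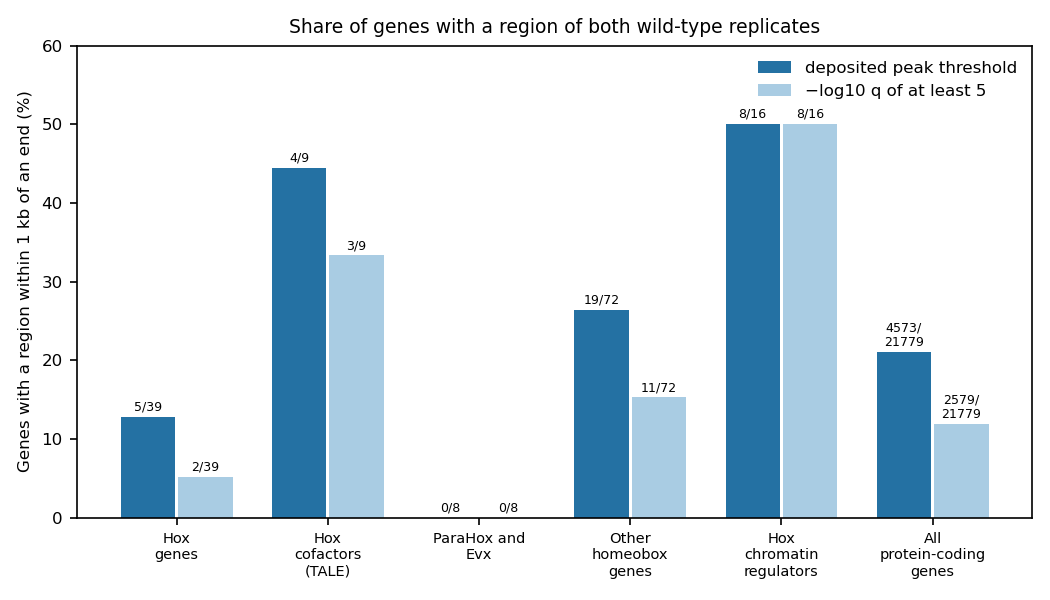
Percentage of genes with a region of both wild-type replicates within 1 kb of an end, at the deposited peak threshold (dark) and for peaks whose −log10 q was 5 or more (light), with occupied genes over all genes of the list printed above each bar. Hox genes stand at 12.8% and 5.13%, and all protein-coding genes at 21% and 11.8%.

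With peaks of −log10 q 5 or more, Hoxa4 and Hoxd8 remained occupied among the 39 (5.13%, beside 11.8% of all protein-coding genes), and the same pair remained with 10 or more (beside 6.78%). Under a reciprocal overlap of at least 50% between replicate peaks, Hoxd8 and Hoxc12 were occupied (5.13%, beside 15.3%) and Hoxa4 was not, its strongest peaks being 976 bp and 2536 bp wide in replicates 1 and 2. With peaks that reached the lowest −log10 p of the Zfp541-/- list, 4 genes were occupied, all but Hoxa7 (beside 18.4%). Windows of 500 bp left all 5 (beside 19.8%), windows of 2 kb added Hoxb6 (beside 22.4%), and whole gene bodies added Hoxa3, whose span holds the Hoxa4 region (beside 23.9%). With the q-value held to at most 0.05, all 5 remained (beside 18.8%).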

How the data were processed

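Peak lists of 3 ChIP-seq libraries were used, 1 Zfp541-/- and 2 wild-type. The submitters' processing notes name mm10 and MACS2 2.2.6, Bowtie2 2.3.5, cutadapt 2.6, deepTools 3.5.0, Picard and SAMtools 1.10, without roles; controls and thresholds were not given in the sources used here. The deposited lists, called per library, give each peak's fold enrichment (a ratio over background), −log10 p and −log10 q, and a score that is 10 times the −log10 q without decimals. Read depth is unknown. The lowest −log10 p was 4.47 in the Zfp541-/- list and 2.71 and 2.54 in wild-type replicates 1 and 2, so the lists began at different strictness.

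Genes, promoters and strands came from RefSeq tables of GRCm38.p6, the assembly of mm10; 108 protein-coding entries before 3 Mb on autosomes and X were left out as misplaced. CpG classes of promoters were bounded at the quartiles of CpG count. Percentiles of fold were taken within each list. Hox genes with any peak, the 3 occupied genes of highest mean percentile per list, and non-coding genes with an end within 1 kb of a peak were named; 1 Hox gene with the peak inside it, 1 cofactor gene and 2 non-coding genes are not reported here by name. Members, lists and tests were chosen with earlier results of these data known, so lists were described by counts beside all genes, without set tests. Binomial intervals are exact (Clopper-Pearson). The overlap steps were tested on simulated data. Alternatives covered stricter thresholds, reciprocal overlap, single replicates, kept knockout peaks, other windows and other flanks. Computations used scipy 1.17.1, pandas 2.3.3, numpy 2.4.6 and matplotlib 3.10.9 under Python 3.11.15.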

Additional observations from a re-analysis of the deposited data

How the results depend on the processing

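The number of occupied Hox genes, 5 of 39, was 2 at a −log10 q of at least 5, 2 at 10 and 2 under reciprocal overlap, and 1 of 22 when only listed starts were used. From 1 wild-type replicate alone it was 5 to 8. The 5 Hox regions became 2, 2 and 2 in the same order of the first 3 settings, and 10 to 15 from 1 replicate alone. Occupied cofactor genes, 4 of 9, were 0 at a −log10 q of at least 10, 1 of 5 with listed starts, and 4 to 5 from 1 replicate. Other homeobox genes, 19 of 72, were 11 and 5 at the stricter q-values, 8 under reciprocal overlap, 10 of 47 with listed starts and 21 to 24 from 1 replicate. The share of all protein-coding genes moved with these settings too. From 21% it became 11.8% and 6.78% at the stricter q-values and 15.3% under reciprocal overlap. With listed starts it was 21.7%, and from 1 replicate 23.7% to 27.8%. The single Zfp541-/- Hox peak was 0 at a −log10 q of at least 5, 0 at 10, and 2 with 50 kb flanks. The 10 Hox peaks of replicate 1 and 15 of replicate 2 were 2 each at both stricter q-values; at the lowest −log10 p of the Zfp541-/- list replicate 2 had 8. Fewer peaks enter under stricter settings. With listed starts, Hoxa4, Hoxb5 and Hoxc12 were not counted because they had no entry. Hoxa7 was lost because its region lay at the other end of the gene. Under reciprocal overlap, Hoxa4, Hoxb5 and Hoxa7 were lost because their replicate peaks shared less than 50% of the wider peak. For the other lists, the cause of the changes under reciprocal overlap and listed starts was not tested. The q-value of at most 0.05, the −log10 p of the Zfp541-/- list as a minimum for regions, and whole gene bodies were chosen after seeing the data; they left 5, 4 and 6 occupied Hox genes. Kept knockout peaks gave 5 and windows of 500 bp and 2 kb gave 5 and 6. No paired analysis was possible because the genotypes share only 1 replicate number and no test was run. Depth is unknown. Hoxb5, Hoxc12 and Hoxa7 were kept at a q-value of at most 0.05 and lost at the stricter q-values.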

Other observations

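A second Zfp541-/- peak lay just outside the Hoxd window. It was inside Evx2, a homeobox gene beside Hoxd13 (chr2:74657949-74658195), 30 bp before the window, with a fold of 4.44 and a −log10 q of 2.29, and its summit was 3503 bp from the nearest end of that gene. Neither wild-type library had a peak between the 10 kb and the 50 kb flanks of any Hox cluster.

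The protein-coding genes with a Zfp541-/- peak within 1 kb of an end, looked up after their values were seen, were 10 in all. Besides Hoxa7 they included the developmental transcription factor genes Osr2 (fold 4.79, −log10 q 3.11) and Tfap2b (3.72, −log10 q 1.39), and neither of these had a wild-type peak within 1 kb of its ends. At Wls, Lars2, Sfi1 and Slc30a4 both wild-type libraries had a peak overlapping that of the Zfp541-/- library, as replicate 1 did at Gm40369; Cdr2 and Mfsd13b shared 1 Zfp541-/- peak that no wild-type peak overlapped.

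Genes for chromatin proteins known to keep Hox genes silent or active were occupied at 8 of 16 (50%, beside 21% of all protein-coding genes), and none had a Zfp541-/- peak near an end. The strongest were Bmi1, a Polycomb gene, with wild-type folds of 11.8 and 13.3 in replicates 1 and 2, Wdr5, a subunit of Trithorax-type methyltransferases, with 8.94 and 11.4, and Cbx2, a Polycomb gene, with 10.5 and 8.06. The other occupied genes were Rnf2, Ezh2, Suz12, Ring1 and Ctcf. The rest of the list was not occupied: Kmt2a, Men1, Ash2l, Kdm6a, Kdm6b, Dot1l, Eed and Rad21. With peaks of −log10 q 5 or more, all 8 remained (beside 11.8%). With 10 or more, 5 were occupied (31.25%, beside 6.78%), and under reciprocal overlap 5 (31.25%, beside 15.3%).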
